A study of Mus musculus with 12 samples.

Results

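A group of genes of surface proteins that are used to tell conventional dendritic cells (cDCs) and other myeloid cells apart was followed through 4 cell populations of the mouse bone marrow: Itgax, Itgam, Sirpa, Cd24a, Clec10a, Clec12a, Clec9a and Cd209a. They are 8 of the 21754 genes of the count table, they were chosen by name, and all 8 were among the 15293 genes that were tested, those whose counts averaged 1 or more over the libraries. No member had a mean count under 1, and the lowest mean, 76.9, was that of Itgam. The study asked how precursors in the bone marrow divide between plasmacytoid dendritic cells (pDCs) and cDCs. RNA of CD11c+ cells from untreated wild-type C57BL/6 mice was read by SCRB-seq, a bulk method that counts mostly the 3' ends of transcripts. The pre-cDCs were negative for Siglec-H, the lo-lo precursors were positive for Siglec-H with low CCR9 and low B220, the lo-hi precursors had low CCR9 and high B220, and the pDCs had high CCR9 and high B220. Each population had 3 libraries, numbered 1 to 3, and lineage-positive cells were depleted before the sort. Mice were adults of either sex per the study's methods. In sorted bulk samples, fewer cells that carry a transcript and less transcript per cell cannot be told apart. The protein of Itgax, CD11c, was itself part of the sort, and it was required in all 4 populations.

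The deposited labels and the study's own values disagree on which library holds which population, and every value here depends on this. The source data behind a heatmap of the study list 28 transcription factors in 12 named samples. For each named sample, 1 well of the count table ordered all 378 pairs of these factors as the sample did, and the next best well put at least 7 pairs in another order. The groups used here follow that match: wells A1, A5 and A9 for pre-cDC, A2, A6 and A10 for lo-lo, A3, A7 and A11 for lo-hi, and A4, A8 and A12 for pDC. Only 4 of the 12 wells carry the matched population on their label and 8 carry another. None of the 28 factors is a member, so that no value of a member entered the match. The standard deviation of log2 CPM within groups, a value that no test rests on, was 0.14 to 0.39 for the 8 genes with the matched wells and 0.31 to 1.01 with the labelled ones. With the labelled groups, edgeR called 0 members and 0 of 15293 genes in each of 7 comparisons. At an unadjusted p under 0.05 it counted 0 members and 140 to 341 genes, and DESeq2 called 0 members and 0 to 5 genes. All directions below are therefore directions between matched wells. The submitters' labels would give none of the calls of members. With edgeR, they reversed the sign in 16 member comparisons and kept it in the others.

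The integrin alpha chains CD11c (Itgax) and CD11b (Itgam) pair with the beta 2 chain (Itgb2) and serve adhesion and uptake of complement-coated particles. SIRP alpha (Sirpa) and CLEC12A signal through inhibitory tails, CD24 (Cd24a) is a small glycosylated protein of immature and activated leukocytes, and CLEC10A, CLEC9A and CD209A are C-type lectins that bind sugars or, for CLEC9A, the actin of dead cells. In mature tissue DCs, CLEC9A and CD24 mark the cDC1 branch, SIRP alpha, CD11b and CLEC10A the cDC2 branch, and CD209A a part of monocyte-derived cells and cDC2s.

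A pair of members lies close together on chromosome 7 and another on chromosome 6. Itgam (ENSMUSG00000030786, chr7:128062640-128118491) and Itgax (ENSMUSG00000030789, chr7:128129547-128150657) lie on the + strand of GRCm38, as do Clec12a (ENSMUSG00000053063, chr6:129342691-129365303) and Clec9a (ENSMUSG00000046080, chr6:129408862-129424763). Sirpa (ENSMUSG00000037902) lies at chr2:129592835-129632228, Cd24a (ENSMUSG00000047139) at chr10:43578284-43584265 and Clec10a (ENSMUSG00000000318) at chr11:70156197-70170834, all on the + strand, and Cd209a (ENSMUSG00000031494) at chr8:3743397-3748984 on the - strand. Promoters of these pairs, each from 250 bases before to 50 bases after the start in RefSeq (GRCm38.p6), are shown because the genes of a pair had different profiles over the populations. Capitals mark GAGGAA, the core of sites of PU.1-family factors, and the E-boxes CAGCTG and CAGGTG, searched on both strands.
Itgam, chr7:128062390-128062689, + strand: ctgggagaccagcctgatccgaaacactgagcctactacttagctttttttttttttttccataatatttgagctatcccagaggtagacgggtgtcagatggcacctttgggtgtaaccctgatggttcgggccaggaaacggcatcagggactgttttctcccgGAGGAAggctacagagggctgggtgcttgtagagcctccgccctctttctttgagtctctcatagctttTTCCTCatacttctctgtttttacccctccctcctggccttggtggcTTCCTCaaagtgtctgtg
Itgax, chr7:128129300-128129599, + strand: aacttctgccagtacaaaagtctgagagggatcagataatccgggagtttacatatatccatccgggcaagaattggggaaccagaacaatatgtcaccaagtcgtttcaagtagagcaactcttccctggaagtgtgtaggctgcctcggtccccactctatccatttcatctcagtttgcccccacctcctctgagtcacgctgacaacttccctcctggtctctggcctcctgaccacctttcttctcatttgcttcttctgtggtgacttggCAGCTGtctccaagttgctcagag
Clec12a, chr6:129349994-129350293, + strand: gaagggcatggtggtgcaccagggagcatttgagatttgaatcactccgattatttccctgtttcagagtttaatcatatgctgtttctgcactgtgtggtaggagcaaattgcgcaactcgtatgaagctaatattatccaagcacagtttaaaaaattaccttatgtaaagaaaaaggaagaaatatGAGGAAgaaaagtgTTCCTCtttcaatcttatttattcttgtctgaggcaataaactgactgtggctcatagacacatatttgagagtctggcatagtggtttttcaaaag
Clec9a, chr6:129408612-129408911, + strand: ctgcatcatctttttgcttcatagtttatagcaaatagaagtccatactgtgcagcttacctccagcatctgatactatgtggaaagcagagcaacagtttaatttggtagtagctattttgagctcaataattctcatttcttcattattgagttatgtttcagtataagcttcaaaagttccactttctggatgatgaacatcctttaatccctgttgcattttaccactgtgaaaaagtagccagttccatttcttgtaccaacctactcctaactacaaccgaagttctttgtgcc

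GAGGAA occurred 3 times in the Itgam window and 2 times in that of Clec12a, CAGCTG 1 time in that of Itgax, and none of the 3 in that of Clec9a. No marked motif overlapped another. Over 32851 promoter windows of this length, 28.3% held GAGGAA, 16.3% CAGCTG and 20.2% CAGGTG, so these matches are a description of the letters and not evidence of a bound factor. The RefSeq table holds a window for 5 of the 8 members. The start of Clec12a in that window lies downstream of the first base of the GENCODE vM21 gene model, whose position is given above.

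Totals ranged from 1801463 to 5995971 counts per library, so that the floor of 3 counts came to 0.50 to 1.67 counts per 1000000 counts (CPM), without TMM scaling and for counting error only. CPM below are counts over the library size after scaling by edgeR's TMM method. The lowest member value, 22 counts of Itgam in pDC 2, stood above this floor. Of 9 pDC markers, 9 were called higher in pDC than in pre-cDC, with summed levels of 10290 to 11700 against 1791 to 2849 CPM, and 7 of 8 markers of pre-cDCs and cDCs were called lower (193 to 201 against 499 to 604 CPM). Many of these genes are no independent check, since 3 pDC markers (Tcf4, Spib and Runx2) and 5 markers of pre-cDCs and cDCs (Zbtb46, Batf3, Id2, Spi1 and Irf4) took part in the match, and products of 3 pDC markers (Siglech, Ccr9 and Ptprc) were used in the sort. Of those left, Bst2, Ly6d and Klra17 (3 of 3) were called higher in pDC, and 2 of 3 (Csf1r and Cx3cr1, not Flt3) lower. The study names Bst2, Ly6d, Klra17, Csf1r and Cx3cr1 with these directions from the same bulk libraries, so they are no independent check either. In this comparison, 10.6% of all genes tested were higher in pDC and 11% lower. The 4 libraries of number 3 held 19.7 to 62.3 CPM of Y-linked Ddx3y against 0.17 to 3.59 CPM in the other 8. Xist stood at 27.3 to 57.0 CPM in number 3 against 222 to 583 CPM. This is the pattern of mainly male marrow in number 3 and of mainly female marrow in numbers 1 and 2, in all 4 populations. Neither gene was absent where it was low, and the source of these low levels was not tested.

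Over the 4 populations together, 7 of the 8 members changed (adjusted p under 0.01), against 19.8% of all genes tested, and Clec9a did not pass (adjusted p = 0.0476). These shares are not like for like, here and below. The members averaged 76.9 to 992 counts, whereas the genes tested include all that averaged 1 or more. The members were also chosen with earlier results of these data known. In lo-lo over pre-cDC, 2 members were higher, where 1.6% of all genes were, and 1 was lower, where 1.54% were. From lo-lo to lo-hi 2 rose and 1 fell, beside 2.19% and 3.21% of all genes. In pDC over lo-hi 0 rose and 2 fell, beside 0.111% and 0.883%. Over the whole span, pDC against pre-cDC, 3 were higher and 3 lower, where 10.6% and 11% of all genes were. In lo-hi over pre-cDC the counts were 3 and 2, beside 6.42% and 6.72%, and in pDC over lo-lo 4 and 3, beside 6.24% and 7.53%. The median log2 fold change of the 8 members in pDC over pre-cDC was -0.19 beside 0.01 over all genes, since members that rose and members that fell were about equally many. The comparisons share populations and are not independent.

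**Figure D1:**
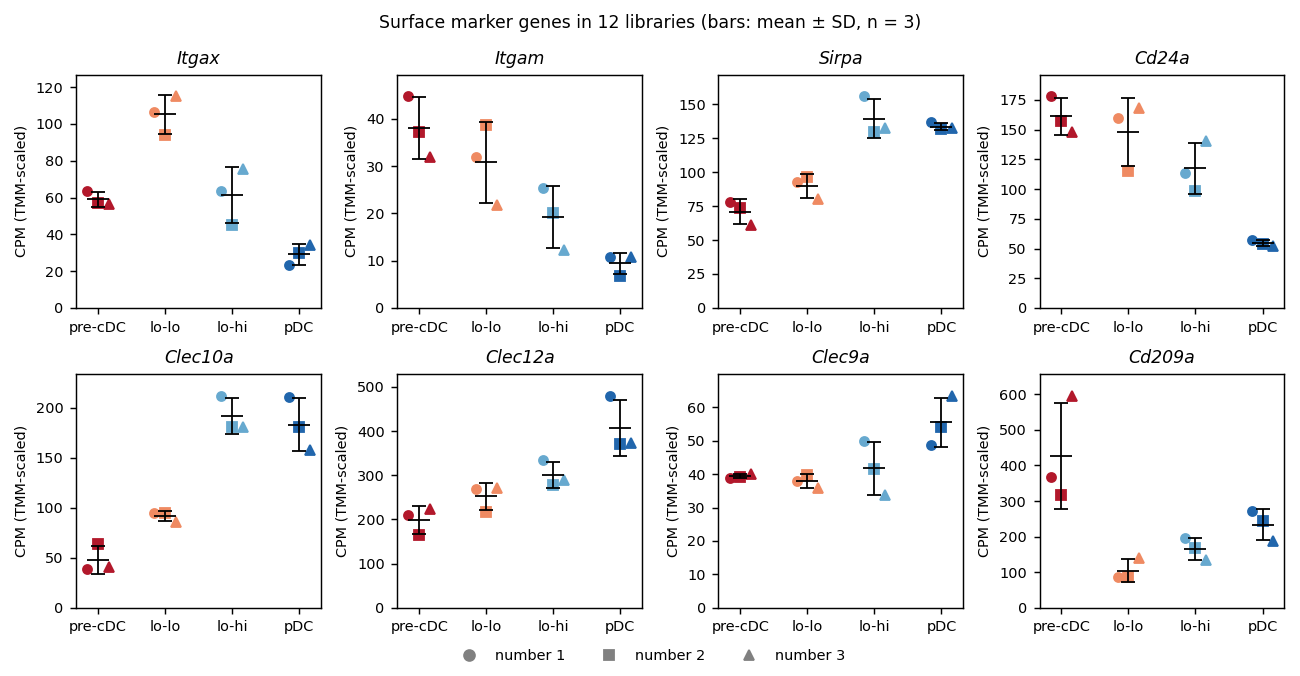
TMM-scaled CPM (y axis, linear, from 0) of the 8 genes in each of the 12 libraries, by matched population (x axis); symbols give the library number and black bars the mean ± SD of 3 libraries. Itgax was highest in lo-lo (94.2 to 115 CPM), Itgam and Cd24a were lowest in pDC, Sirpa, Clec10a and Clec12a were higher in pDC than in pre-cDC, and Cd209a was lowest in lo-lo.

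Itgax, the gene of CD11c, was highest in the lo-lo precursors and lowest in pDCs. It measured 63.7, 56.9 and 56.4 CPM in pre-cDC 1, 2 and 3, 106, 94.2 and 115 CPM in lo-lo, 63.5, 45.1 and 75.3 CPM in lo-hi, and 23.3, 29.9 and 34.4 CPM in pDC. All 3 lo-lo libraries stood above and all 3 pDC libraries below every other library, while pre-cDC and lo-hi overlapped. Itgax rose from pre-cDC to lo-lo by 0.83 ± 0.18 (log2 fold change ± SE, adjusted p = 0.00419), fell by 0.78 ± 0.18 from lo-lo to lo-hi (adjusted p = 0.00525) and fell by 1.09 ± 0.19 from lo-hi to pDC (adjusted p = 0.00131). Between lo-hi and pre-cDC the difference was 0.05, with a 95% interval from -0.33 to 0.44. The fall from pre-cDC to pDC, 1.04 ± 0.19, passed in each fit that left out 1 library. The step to lo-lo did not pass without pre-cDC 1 (adjusted p = 0.0185), pre-cDC 3 (0.0189), lo-lo 1 (0.0189) or lo-lo 3 (0.0265), with all libraries thinned to the smallest total (0.0504) or in the 8 libraries of numbers 1 and 2 (0.0472). The step from lo-lo to lo-hi did not pass without 6 of the libraries in turn, namely pre-cDC 1, lo-lo 1, 2 or 3, or lo-hi 1 or 2, with adjusted p from 0.0113 to 0.0782, or with thinned libraries (0.0282). The step to pDC was lost without pDC 1 (0.0138), pDC 2 (0.0113) or lo-hi 3 (0.0242).

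Itgam, the gene of CD11b, had lower means from pre-cDC towards pDC. Its values were 44.9, 37.2 and 31.9 CPM in pre-cDC 1, 2 and 3, 32.0, 38.8 and 21.8 CPM in lo-lo, 25.3, 20 and 12.4 CPM in lo-hi, and 10.8, 6.79 and 10.7 CPM in pDC. The pDC libraries stood below all others, pre-cDC above all lo-hi, and lo-lo overlapped both pre-cDC and lo-hi. Itgam was lower in pDC than in pre-cDC by 2.0 ± 0.26 on the log2 scale (adjusted p = 1.1e-06), which was the largest fall of the 8 genes in that comparison, and lower in lo-hi than in pre-cDC, with a log2 fold change of -0.93 ± 0.24 (adjusted p = 0.00727). Neither lo-lo against pre-cDC (-0.32 ± 0.23, adjusted p = 0.522) nor lo-hi against lo-lo (-0.61 ± 0.24, adjusted p = 0.142) passed. The step from lo-hi to pDC, -1.07 ± 0.27, did not pass (adjusted p = 0.0354), but passed with the library number as a block (adjusted p = 0.00317), with no low-count filter (0.00058) and in the 8 libraries of numbers 1 and 2 (-1.35, adjusted p = 0.00489). The call of lo-hi against pre-cDC was lost without pre-cDC 1 (adjusted p = 0.0699), pre-cDC 2 (0.0141), lo-lo 1 (0.012), lo-hi 2 (0.0303), lo-hi 3 (0.0614) or pDC 3 (0.013), among genes averaging 10 counts or more (0.0129) and in numbers 1 and 2 alone (0.0194). Of the 50-base windows of the Itgam transcripts in GENCODE vM21, 66.3% also occur in Gm49368. This is an overlapping gene model of vM21 on the same strand that has no row in the count table.

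The beta chain that both integrins need, Itgb2, did not follow either of them. It had 140 ± 14.9 CPM (SD, n = 3) in pre-cDC, 73.4 ± 4.17 in lo-lo, 88.3 ± 15.0 in lo-hi and 118 ± 26.4 in pDC. It changed over the 4 populations (adjusted p = 0.000556), but pDC against pre-cDC did not pass (-0.23 ± 0.17, adjusted p = 0.331). Its lowest mean was thus in lo-lo, where Itgax had its highest. Of 17 integrin genes listed, 13 were tested, and in pDC over pre-cDC 3 were higher, 4 lower and 6 not called, with a median log2 fold change of -0.60. Without pre-cDC 1, or with thinned libraries, 2 were called lower. In the main fit, 10.6% of all genes tested were higher in pDC than in pre-cDC and 11% lower. Itgad, the gene of CD11d and a close relative of Itgax, rose by 2.67 ± 0.36 (from 1.71 ± 0.59 CPM, near the floor, to 11.2 ± 1.87 CPM, adjusted p = 1.89e-06). Itgax and Itgad thus went in opposite directions, although 8.02% of the 50-base windows of Itgax also occur in Itgad. Itgal, the alpha chain of LFA-1, rose by 1.32 ± 0.16, and Itgb7, a beta chain of gut-homing integrins, fell by 1.04 ± 0.15. Itga6, the laminin receptor chain, fell by 2.17 ± 0.44, and did not pass without pre-cDC 1 or with all libraries thinned to the smallest total (largest adjusted p = 0.0125).

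Sirpa, the gene of the receptor for CD47, was higher in lo-hi and pDC than in pre-cDC and lo-lo. It measured 78.2, 73.5 and 60.8 CPM in pre-cDC 1, 2 and 3, 92.9, 96.6 and 79.97 CPM in lo-lo, 156, 129 and 133 CPM in lo-hi, and 137, 132 and 132 CPM in pDC. No library of lo-hi or pDC overlapped one of pre-cDC or lo-lo, while lo-hi and pDC overlapped each other. Sirpa rose by 0.98 ± 0.16 from pre-cDC to lo-hi (adjusted p = 3.89e-05) and by 0.92 ± 0.16 from pre-cDC to pDC (adjusted p = 4.8e-05). From lo-hi to pDC the difference was -0.07, with a 95% interval from -0.38 to 0.25. The step from lo-lo to lo-hi, 0.64 ± 0.15 (adjusted p = 0.00719), was lost without lo-lo 1 (0.0245), lo-lo 3 (0.0532), lo-hi 1 (0.0644), lo-hi 2 (0.0115), lo-hi 3 (0.0129) or pDC 2 (0.0133), with thinned libraries (0.0235) and in numbers 1 and 2 alone (0.0435). The difference of pDC from lo-lo, 0.57 ± 0.15 (adjusted p = 0.0076), was lost without lo-lo 1 (0.0266), lo-lo 3 (0.0546), pDC 1 (0.017) or pDC 2 (0.0261), with thinned libraries (0.014) and in numbers 1 and 2 alone (0.0599).

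Cd24a was high in pre-cDC, lo-lo and lo-hi and low in pDC. Its values were 179, 157 and 148 CPM in pre-cDC 1, 2 and 3, 160, 115 and 168 CPM in lo-lo, 113, 98.4 and 140 CPM in lo-hi, and 57.5, 53.4 and 52.4 CPM in pDC. Every pDC library stood below every other library, and the other populations overlapped except pre-cDC and lo-hi. The gene fell by 1.1 ± 0.18 from lo-hi to pDC (adjusted p = 0.000476) and was lower in pDC than in pre-cDC, with a log2 fold change of -1.56 ± 0.18 (adjusted p = 8.35e-08). The pDC calls passed in all fits that left out 1 library, and lo-hi against pre-cDC did not pass (-0.46 ± 0.17, adjusted p = 0.057). Siglecg, a receptor for CD24, had the opposite direction, 60.7 ± 10.5 CPM in pre-cDC and 118 ± 1.8 CPM in pDC (log2 fold change 0.96 ± 0.16, adjusted p = 4.19e-05).

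**Figure D2:**
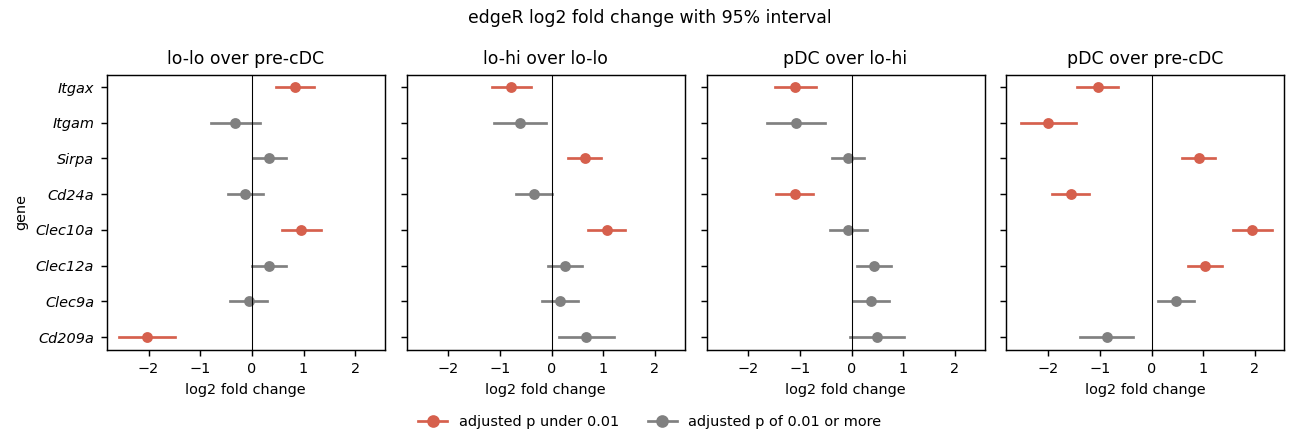
Log2 fold change (x axis) of the 8 genes (y axis) from edgeR in the 3 steps between populations and in pDC over pre-cDC; points are estimates, lines their 95% intervals, and red marks an adjusted p under 0.01. Itgax turned from higher in lo-lo (0.83) to lower in each following step (-0.78 and -1.09), and Cd209a was lower in lo-lo by the largest margin (-2.03).

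Among the lectins, Clec10a, the gene of the macrophage galactose-type lectin CD301, had the largest rise of the 8 genes. It measured 39.0, 63.9 and 41.1 CPM in pre-cDC 1, 2 and 3, 94.8, 95.2 and 85.9 CPM in lo-lo, 212, 181 and 181 CPM in lo-hi, and 211, 181 and 158 CPM in pDC. Pre-cDC, lo-lo and the pair of lo-hi and pDC formed 3 ranges without overlap. Clec10a rose by 0.95 ± 0.18 from pre-cDC to lo-lo (adjusted p = 0.00126) and by 1.06 ± 0.18 from lo-lo to lo-hi (adjusted p = 0.000162), and pDC differed from lo-hi by -0.06, with a 95% interval from -0.42 to 0.29. The rise from pre-cDC to pDC, 1.95 ± 0.18 (adjusted p = 4.3e-09), passed in every fit that left out 1 library, whereas the first step was lost without pre-cDC 1 (adjusted p = 0.0252), in a fit of only the 6 libraries compared (0.0111) and in the 8 libraries of numbers 1 and 2 (0.0122). Mgl2, its closest relative (CD301b), moved the same way at lower counts, from 2.52 ± 1.09 CPM in pre-cDC to 16.4 ± 5.57 CPM in pDC (2.79 ± 0.35, adjusted p = 4.19e-07), and 9.02% of the 50-base windows of Clec10a occur in other genes, mostly in Mgl2.

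Clec12a, an inhibitory receptor, had a higher mean in each population from pre-cDC to pDC. It measured 211, 164 and 223 CPM in pre-cDC 1, 2 and 3, 268, 216 and 272 CPM in lo-lo, 333, 278 and 289 CPM in lo-hi, and 480, 370 and 372 CPM in pDC. Only pre-cDC and lo-lo overlapped. No single step passed (0.34 ± 0.16, 0.25 ± 0.16 and 0.44 ± 0.16, with adjusted p = 0.273, 0.431 and 0.209), but pDC was higher than pre-cDC by 1.03 ± 0.16 (adjusted p = 1.4e-05) and than lo-lo by 0.70 ± 0.16 (adjusted p = 0.00206), and lo-hi was higher than pre-cDC by 0.59 ± 0.16 (adjusted p = 0.00901). The call of pDC against lo-lo was lost without pDC 1 (0.0146) or lo-lo 2 (0.0101). That of lo-hi against pre-cDC was lost without pre-cDC 1 or 2, lo-lo 1, lo-hi 1, 2 or 3, or pDC 2, with adjusted p from 0.0104 to 0.0496, and with only the 6 libraries compared (0.0122).

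Clec9a, a marker gene of mature cDC1s and their precursors, did not pass in any comparison of 2 populations. It measured 39.0, 39.3 and 40.1 CPM in pre-cDC 1, 2 and 3, 38.0, 39.8 and 35.7 CPM in lo-lo, 49.8, 41.5 and 33.9 CPM in lo-hi, and 48.9, 54.0 and 63.6 CPM in pDC. The pDC libraries stood above all pre-cDC and lo-lo libraries, and pDC 1 stood below lo-hi 1. The difference of pDC from pre-cDC was 0.48 ± 0.17 (95% interval 0.13 to 0.83, adjusted p = 0.0314), and that from lo-lo was 0.54 ± 0.17 (adjusted p = 0.0204), which passed without pre-cDC 2 (adjusted p = 0.00951) and with the libraries thinned to the smallest total (0.85, adjusted p = 0.005). Of its 50-base windows, 4.02% occur in Clec1b, whose gene model overlaps it on the same strand.

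Cd209a, a relative of human DC-SIGN, had its lowest level in lo-lo. It measured 368, 317 and 597 CPM in pre-cDC 1, 2 and 3, 85.1, 87.1 and 141 CPM in lo-lo, 196, 168 and 134 CPM in lo-hi, and 271, 243 and 187 CPM in pDC. All pre-cDC libraries were above all others, and lo-hi overlapped both lo-lo and pDC. Cd209a fell by 2.03 ± 0.25 from pre-cDC to lo-lo (adjusted p = 7.52e-05) and stood lower in lo-hi than in pre-cDC (-1.36 ± 0.25, adjusted p = 0.000671), in each fit that left out 1 library. Between lo-lo and pDC it rose by 1.16 ± 0.25 (adjusted p = 0.00248), a call lost without lo-lo 1 (0.0121), lo-lo 2 (0.0114), pDC 1 (0.0258) or pDC 2 (0.01). The difference of pDC from pre-cDC, -0.87 ± 0.24, missed the cutoff (adjusted p = 0.0116) and passed with DESeq2 (-0.88, adjusted p = 0.00176), with no low-count filter (3.52e-06) and with only the 6 libraries compared (0.00822), as well as without lo-lo 1 (0.00864), pre-cDC 2 (0.0051) or lo-lo 3 (0.00254). The step from lo-lo to lo-hi, 0.67 ± 0.25 (adjusted p = 0.122), passed with no low-count filter on all 12 libraries (0.70, adjusted p = 0.00157) and in the 8 libraries of numbers 1 and 2 (1.1, adjusted p = 0.000151). Number 3 held the highest lo-lo and the lowest lo-hi value.

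Relatives of Cd209a followed it only in part. Cd209d had 114 ± 8.38 CPM in pre-cDC, 97.7 ± 16.2 in lo-lo, 283 ± 45.2 in lo-hi and 478 ± 59.8 in pDC. Cd209c had 2.22 ± 1.15, 1.90 ± 1.01, 11.4 ± 3.88 and 20.9 ± 2.23 CPM in the same order. Both were thus low in pre-cDC and lo-lo and higher in lo-hi and pDC. Their means in lo-lo were slightly below those in pre-cDC, by no more than the spread in lo-lo, and no test of this is given. The lower levels of Cd209c were also near the floor. Unlike Cd209a, both were higher in pDC than in pre-cDC, Cd209d by 2.07 ± 0.17 (adjusted p = 3.66e-10) and Cd209c by 3.32 ± 0.34 (adjusted p = 2.29e-08). Cd209e had 9.74 ± 0.99 CPM in pre-cDC, 4.21 ± 2.68 in lo-lo, 1.74 ± 1.09 in lo-hi and 2.77 ± 0.61 in pDC, and was lower in pDC than in pre-cDC (-1.73 ± 0.38, adjusted p = 0.000953). None of the 50-base windows of Cd209a occur in another gene. Of 26 C-type lectin genes listed beside the members, 20 were tested, and in pDC over pre-cDC 5 were higher, 7 lower and 8 not called (median -0.48). The shares of all genes tested were 10.6% higher and 11% lower. Clec4a3 (-3.13 ± 0.40) and Clec7a, the beta-glucan receptor Dectin-1 (-2.84 ± 0.27), were lower, opposite in direction to Clec10a and Clec12a. Clec4a3 had 8.68 ± 1.95 CPM in pre-cDC and a mean within the range of the floor in pDC (0.89 ± 0.42 CPM). Clec4b1 was lower as well, with 6.31 ± 1.1 CPM in pre-cDC and a mean under the floor in pDC (0.39 ± 0.68 CPM), and it did not pass with thinned libraries (adjusted p = 0.0161).

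**Figure D3:**
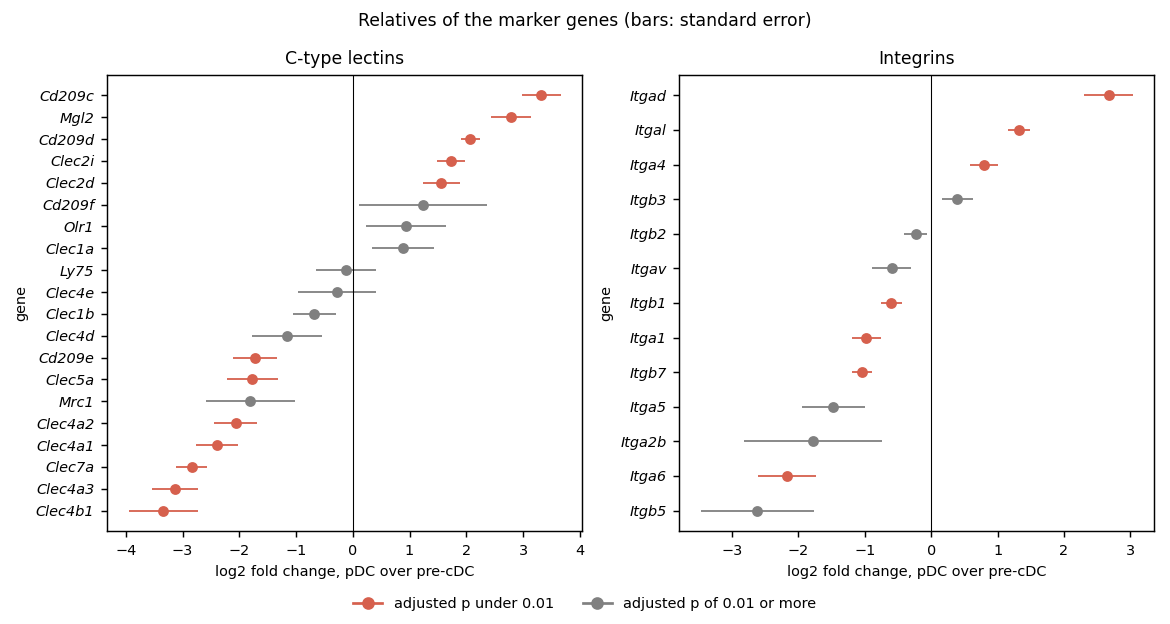
Log2 fold change (x axis) in pDC over pre-cDC of the 20 C-type lectin genes and 13 integrin genes tested beside the members (y axis); bars are standard errors and red marks an adjusted p under 0.01. Cd209c (3.32), Mgl2 (2.79) and Itgad (2.67) stand at the upper end, Clec4a3 (-3.13) and Clec7a (-2.84) near the lower.

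Genes that mark the cDC branches were counted in the same comparison, in which 10.6% of all genes tested were higher in pDC and 11% lower. Of 10 genes listed for cDC1s, 7 were tested, 3 were higher in pDC, 0 lower and 4 not called. Those called were Cd8a, which pDCs also carry (3.002 ± 0.27), Cadm1 (2.09 ± 0.24) and Ppt1 (0.68 ± 0.17, with adjusted p up to 0.0242 when pDC 1 or pDC 2 was left out, when only the 6 libraries compared were fitted or with thinned libraries). Xcr1, the chemokine receptor of cDC1s, did not pass (4.02 ± 0.83 CPM in pre-cDC and 2.52 ± 1.82 CPM in pDC). Of 18 genes of cDC2s and pre-cDCs, 14 were tested, 9 were lower in pDC and 2 higher, with a median of -1.92 beside 0.01 over all genes. Csf1r, the receptor for M-CSF, fell by 3.66 ± 0.22 and Clec4a3 and Clec7a (above) by similar margins, while Epcam rose by 2.88 ± 0.50 and Mgl2 (above) by 2.79 ± 0.35. Epcam had 1.96 ± 1.11 CPM in pre-cDC, near the floor, and 13.6 ± 7.62 CPM in pDC. The cDC2-associated members Sirpa and Clec10a thus rose while most tested genes of that list fell. Itgam fell with them, and Cd209a was lower without passing. From its single cells, the study lists Clec10a among genes high in differentiated pDCs. It lists Cd209a among genes higher in a cluster of pre-cDCs and common DC progenitors. For Itgax, it reports by qRT-PCR a rapid rise in the progeny of cultured lo-lo precursors, which were gated more narrowly than here. By flow cytometry it found more SIRP alpha on CCR9-low precursors with higher B220. That is protein, and a comparison of lo-hi with lo-lo. The same step of Sirpa RNA passed, but was lost in 6 of the 12 fits that left out 1 library.

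The partners of the members gave 3 of 11 genes higher in pDC than in pre-cDC, 0 lower and 8 not called (median -0.05). Among all genes tested, 10.6% were higher and 11% lower. Cd47, the ligand of SIRP alpha, rose by 0.89 ± 0.13, from 617 ± 25.4 CPM in pre-cDC to 1139 ± 18.8 CPM in pDC (adjusted p = 5.09e-06), in the same direction as Sirpa. Syk, the kinase that binds the tail of CLEC9A, rose by 1.11 ± 0.16 (adjusted p = 4.84e-06). Ptpn6, the phosphatase SHP-1 that binds inhibitory tails, had 415 ± 14.3 CPM in pre-cDC and 422 ± 19.8 CPM in pDC and did not pass (adjusted p = 0.91).

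Genes whose log2 CPM went most closely with each member over the 12 libraries were sought among 10807 genes whose counts averaged 10 or more. The correlations describe these libraries, in which the points of 1 population share their cell type, and carry no test. With Itgax they were Bcl2, a survival gene (Pearson r = 0.955), Polq (0.946) and Trim28 (0.946). Bcl2 shared the peak in lo-lo, with a mean of 110 CPM there against 48.5 CPM in pre-cDC, 34.6 CPM in lo-hi and 9.75 CPM in pDC. With Itgam they were Ankle1 (0.944), the mitotic kinase Plk1 (0.936) and Snrpd3 (0.934), and with Cd24a E2f2, a factor of the cell cycle (0.965), Tmem97 (0.962) and the kinetochore gene Ska3 (0.961). Sirpa went with R3hdm4 (0.974), Stat2, of interferon signalling (0.969), and Trp53inp1 (0.967). Clec10a went with Hs3st1 (0.986), Sh3bgr (0.983) and Robo3 (0.982), and Clec12a with the cytidine deaminase gene Apobec3 (0.987), Tmem123 (0.98) and Edem2 (0.976). For Clec9a the values were lower, Lmo2 (0.917), Uckl1 (0.911) and Serpina3h (0.897). Cd209a went with Gm20425 (0.968), Cd52 (0.962) and Creg1 (0.945), and Cd52 shared its trough, with 1236 CPM in pre-cDC and 496 CPM in lo-lo. Among the members themselves the highest correlation was that of Sirpa with Clec10a (0.954) and the lowest that of Itgam with Clec12a (-0.825). Itgam and Itgax gave 0.655 and Clec12a and Clec9a 0.635.

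Markers of other blood cells were set beside these results. The summed granulocyte markers, none of 11 called over the populations, ranged from 4472 to 11740 CPM in pre-cDC, from 5297 to 18200 in lo-lo, from 9669 to 20680 in lo-hi and from 3234 to 6569 in pDC, although Ly6G+ cells were depleted. CD11b is also carried by granulocytes. Within pre-cDC, Itgam (44.9, 37.2 and 31.9 CPM in libraries 1, 2 and 3) had the same order as the granulocyte sum (11740, 10790 and 4472 CPM), and so it had within lo-hi (25.3, 20 and 12.4 beside 20680, 12350 and 9669 CPM). The order differed within lo-lo (32.0, 38.8 and 21.8 beside 18200, 5297 and 5844 CPM) and pDC (10.8, 6.79 and 10.7 beside 6569, 5178 and 3234 CPM). The monocyte and macrophage markers summed to 3981 to 4356 CPM in pre-cDC, 2543 to 3515 in lo-lo, 3306 to 4311 in lo-hi and 2878 to 3917 in pDC. Of these 10 markers, 4 were called lower in pDC than in pre-cDC, beside 11% of all genes tested. Their sum had its lowest library in lo-lo, but it was mostly Ly6c2 and Lyz2, which differed. Ly6c2 measured 1870 to 2080 CPM in lo-lo and 2350 to 3190 CPM in pDC, whereas Lyz2 measured 648 to 1500 CPM in lo-lo and 514 to 716 CPM in pDC. Mast cell and basophil markers were high in pre-cDC 1 and 2 (855 and 736 CPM) and not in pre-cDC 3 (112 CPM), while Cd209a was highest in pre-cDC 3. No gene of these 3 lists was at 0 in all libraries and the part of such cells in the levels of Itgam and Cd209a was not tested.

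**Figure D4:**
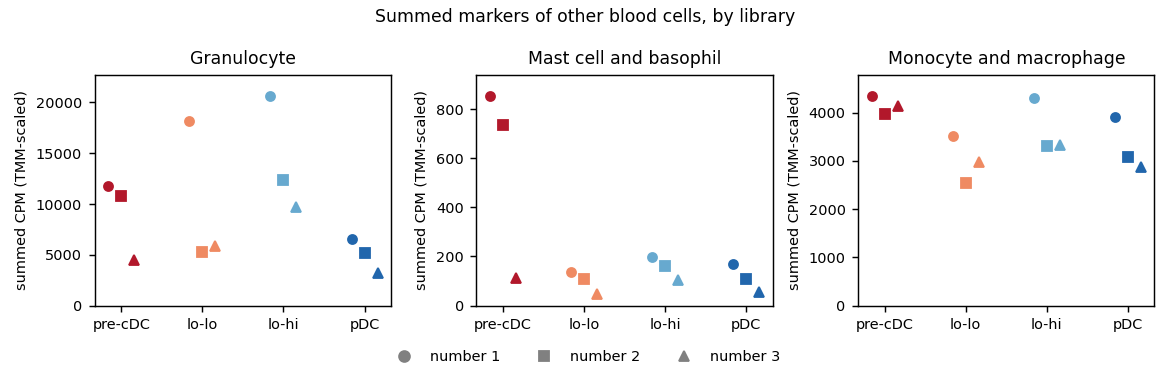
Summed TMM-scaled CPM (y axis, linear, from 0) of marker genes of granulocytes, mast cells and basophils, and monocytes and macrophages in each library, by matched population (x axis); symbols give the library number. The basophil sum is high in pre-cDC 1 and 2 alone, and the granulocyte sum is highest in lo-hi 1 (20680 CPM).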

How the data were processed

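The authors ran zUMIs, which drops barcodes of low quality, aligned the reads by STAR (mm10, GRCm38) and assigned them to Ensembl genes. The deposited table holds raw counts, 1 column per well and 1 row per gene, and whether these are reads or molecular identifiers is not given in the sources used here. Gene symbols and positions came from GENCODE vM21 on GRCm38 (21410 of 21754 identifiers matched). The 8 genes, the companion lists and the tests were chosen with earlier results of these data known.

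Genes averaging 1 count or more were fitted with edgeR 4.0.16 in R 4.3.3 (TMM, robust quasi-likelihood test, 12 libraries in 1 fit, no block), with Benjamini-Hochberg adjustment over 15293 genes and a cutoff of 0.01. The steps were tested on simulated data. The study used the likelihood ratio test of DESeq2, run here as an alternative (1.42.0). P-values rest on the spread between libraries of the same population, 3 in each, pooled over the 4 populations and moderated across genes.

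Genes named beside the members are the 3 most alike in log2 CPM and up to 4 per list with the largest change past the cutoff in pDC against pre-cDC. Itgb2, Mgl2, Cd209d, Cd209e, Xcr1 and Ptpn6 were named after their values were seen. The study's legend speaks of 3 individual mice, whereas its methods describe pooled marrow of sex-matched mice. Deviations from the population means correlated at 0.118 on average between libraries of the same number (18 pairs, -0.15 to 0.308) and at -0.0588 between others (36 pairs). Following the legend, the number was used as a block in an alternative fit. The other alternatives were DESeq2's size factors, no filter, a mean of at least 10, a cutoff of 0.05, thinning, only the 6 libraries compared, the labelled groups, and leaving out each library. Some genes of the marker lists are not reported here. The fit of numbers 1 and 2 alone and DESeq2 with the labelled groups were added after seeing the data.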

Additional observations from a re-analysis of the deposited data

How the results depend on the processing

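Of 48 member comparisons, 26 were called, and 16 of these passed in each of the 12 fits that left out 1 library. With the matched wells, no called difference changed sign under any alternative. Leaving out 1 library gave 7 members called over the 4 populations in each fit, 1 to 3 for lo-lo against pre-cDC, 1 to 3 for lo-hi against lo-lo, 1 to 2 for pDC against lo-hi, 3 to 5 for lo-hi against pre-cDC, 4 to 8 for pDC against lo-lo and 6 to 7 for pDC against pre-cDC. With thinned libraries, 1 member was called for lo-hi against lo-lo, and in the 8 libraries of numbers 1 and 2 there was 1 for lo-lo against pre-cDC, both with fewer counts or samples. The number as a replicate block added the call of Itgam in pDC against lo-hi (-1.07, adjusted p = 0.00317) and changed no other call of a member, and it moved the genes called from 152 to 344 for pDC against lo-hi and from 479 to 735 for lo-lo against pre-cDC. Without the filter these were 344 and 733, and with thinning 97 and 267, with 500 in place of 826 for lo-hi against lo-lo and 1345 in place of 2106 for pDC against lo-lo. At a cutoff of 0.05 the counts were 889, 1332 and 327 for the 3 steps in their order (479, 826 and 152 at 0.01), 3072 for lo-hi against pre-cDC (2010) and 3248 for pDC against lo-lo (2106), and numbers 1 and 2 alone gave 247 for lo-lo against pre-cDC and 99 for pDC against lo-hi. Leaving out 1 library gave 280 to 662 genes for lo-lo against pre-cDC, 381 to 948 for lo-hi against lo-lo and 65 to 213 for pDC against lo-hi. The same fits gave 1380 to 2338 genes for lo-hi against pre-cDC and 1568 to 2342 for pDC against lo-lo. They gave 2502 to 3556 for pDC against pre-cDC (3307 with all libraries) and 2409 to 3337 over the 4 populations (3029).

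Uncalled differences that changed sign with the matched wells, given with their range over the fits that left out 1 library, were Itgax in lo-hi over pre-cDC (-0.078 without lo-hi 3 to 0.223, thinned -0.026, numbers 1 and 2 alone -0.11), Sirpa in pDC over lo-hi (-0.11 to 0.008 without lo-hi 1), Clec9a in lo-hi over pre-cDC (-0.038 without lo-hi 1 to 0.248) and in lo-lo over pre-cDC (0.008 in numbers 1 and 2 alone), Cd24a in lo-lo over pre-cDC (-0.222 to 0.01 without lo-lo 2) and Clec10a in pDC over lo-hi (-0.179 to 0.037 without pDC 3).

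With the groups of the deposited labels, 0 members were called over the 4 groups and in each of the 6 comparisons, with edgeR, with the replicate block and with DESeq2. The following log2 fold changes had the other sign there: Itgax -0.43 (lo-lo over pre-cDC), 0.78 (pDC over lo-hi), -0.83 (lo-hi over pre-cDC), 0.38 (pDC over lo-lo), Sirpa -0.091 (lo-lo over pre-cDC), 0.10 (pDC over lo-hi), -0.029 (lo-hi over pre-cDC), Clec9a 0.016 (lo-lo over pre-cDC), -0.03 (pDC over lo-hi), Cd209a 0.054 (lo-lo over pre-cDC), -1.13 (pDC over lo-hi), 0.64 (lo-hi over pre-cDC), -0.55 (pDC over lo-lo), Cd24a 0.27 (pDC over lo-hi), 0.14 (pDC over lo-lo) and Clec10a 0.074 (pDC over lo-hi). With the labelled groups and the block they were Itgax -0.46 (lo-lo over pre-cDC), 0.81 (pDC over lo-hi), -0.83 (lo-hi over pre-cDC), 0.44 (pDC over lo-lo), Sirpa -0.083 (lo-lo over pre-cDC), 0.09 (pDC over lo-hi), -0.013 (lo-hi over pre-cDC), Clec9a 0.033 (lo-lo over pre-cDC), -0.067 (pDC over lo-hi), Cd209a 0.18 (lo-lo over pre-cDC), -1.11 (pDC over lo-hi), 0.68 (lo-hi over pre-cDC), -0.61 (pDC over lo-lo), Cd24a 0.21 (pDC over lo-hi), 0.11 (pDC over lo-lo) and Clec10a 0.07 (pDC over lo-hi). Depth limits Itgam most, with 22 to 151 counts per library.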
